A study of Mus musculus with 6 samples.

Results

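The Sprouty and Spred genes encode a family of inhibitors of the Ras to ERK (extracellular signal-regulated kinase) pathway. They were followed in primary hippocampal neurons treated briefly with forskolin. The members were the rows of the deposited gene count table named Spry1, Spry2, Spry3, Spry4, Spred1, Spred2 and Spred3, found by symbol and not by their values. All 7 of these symbols were present among 37411 gene rows, and all 7 were among the 16233 genes with enough reads to be tested.

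RNA had been sequenced from hippocampal cultures of CD-1 IGS mice, started from newborn (P0) pups and harvested after 16 days in vitro. The 3 control cultures (libraries 1, 2 and 3) received the solvent dimethyl sulfoxide (DMSO), and the 3 treated cultures (libraries 4, 5 and 6) received 50 µM forskolin, in both cases for 30 min. Forskolin, a diterpene from a plant, directly stimulates adenylyl cyclase, the enzyme that makes cyclic AMP (cAMP). The labels do not say whether the libraries of a group came from separate litters or platings, so the p-values measure only the spread between these libraries, which may in part be technical.

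Growth factor receptors with tyrosine kinase activity switch on Ras, which activates Raf kinases, MEK and ERK in turn. Sprouty proteins bind adaptors and Raf and interrupt this chain below the receptor, and Spred proteins bring the Ras GTPase-activating protein neurofibromin to the membrane. Both families share a cysteine-rich C-terminal domain, and Spreds carry an EVH1 domain at the other end. Several Sprouty genes are themselves transcribed in response to ERK signalling, which makes them feedback inhibitors, and in neurons cAMP can reach ERK through protein kinase A and Rap1.

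Total counts ranged from 28342764 to 47548379 per library. Expression is given as CPM, counts scaled by the size of each library. Library 6 stood apart from the other treated libraries: on the leading principal component of log2 CPM, which held 58.5% of the variance, the treated libraries scored 66.3, 73.7 and -44.2 and the controls lay between -45.7 and -24.8. The mitochondrial ribosomal RNA genes took 14.0 to 23.7% of counts in the controls and 29.6, 33.3 and 26.9% in libraries 4, 5 and 6, so that this share, unlike the principal component, separated the groups with library 6 included. Its part in the differences of Spry2, Spred2, Dab2ip and Dusp7, whose groups were separate too, was not tested. The labelled cell type was checked on marker lists. All 14 neuronal markers were detected, with a summed level of 4500 to 5760 CPM in the controls and of 3400, 3700 and 5430 CPM in libraries 4, 5 and 6. The 12 astrocyte markers were detected as well, with a sum of 7350 to 8070 CPM in the controls and of 8100, 8920 and 7260 CPM in the treated libraries. Microglial markers summed to 23.3 to 35.7 CPM in the controls and to 246, 405 and 25.6 CPM in libraries 4, 5 and 6. The corresponding sums of the oligodendrocyte lineage markers were 691 to 747 CPM and 1060, 1430 and 467 CPM. Those of the vascular and meningeal markers were 263 to 486 CPM and 521, 426 and 160 CPM, with the endothelial marker Cldn5 and the pericyte marker Kcnj8 at 3 counts or fewer in every library. In these bulk samples, fewer cells of a type and less RNA per cell cannot be told apart.

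None of the 7 genes changed past the threshold after 30 min of forskolin. EdgeR's quasi-likelihood test gave them Benjamini-Hochberg adjusted p-values from 0.173 to 0.812, and 0 of 7 were under 0.05, against 245 of 16233 tested genes (1.51%). At an unadjusted p-value under 0.05 there was 1 of 7 (Spred2), against 22.3% of tested genes, and DESeq2, which called 4.90% of the tested genes higher and 6.03% lower, also called 0 of 7. The fitted log2 fold changes of forskolin over DMSO ran from -0.42 to 0.31 with a median of -0.11, and those of all tested genes had a median of 0.02 and quartiles of -0.25 and 0.36. Of the 7 genes, 3 had positive and 4 negative fitted values. In CPM the groups did not overlap for 2 of 7, against 26.5% of tested genes. Spry2 was higher in every treated library than in any control, as were 10.3% of tested genes, and Spred2 was lower in every treated library, as were 16.2%. No member is among the 132 genes of the authors' deposited table, which are all increases with a log2 fold change of at least 1.50 there.

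**Figure D1:**
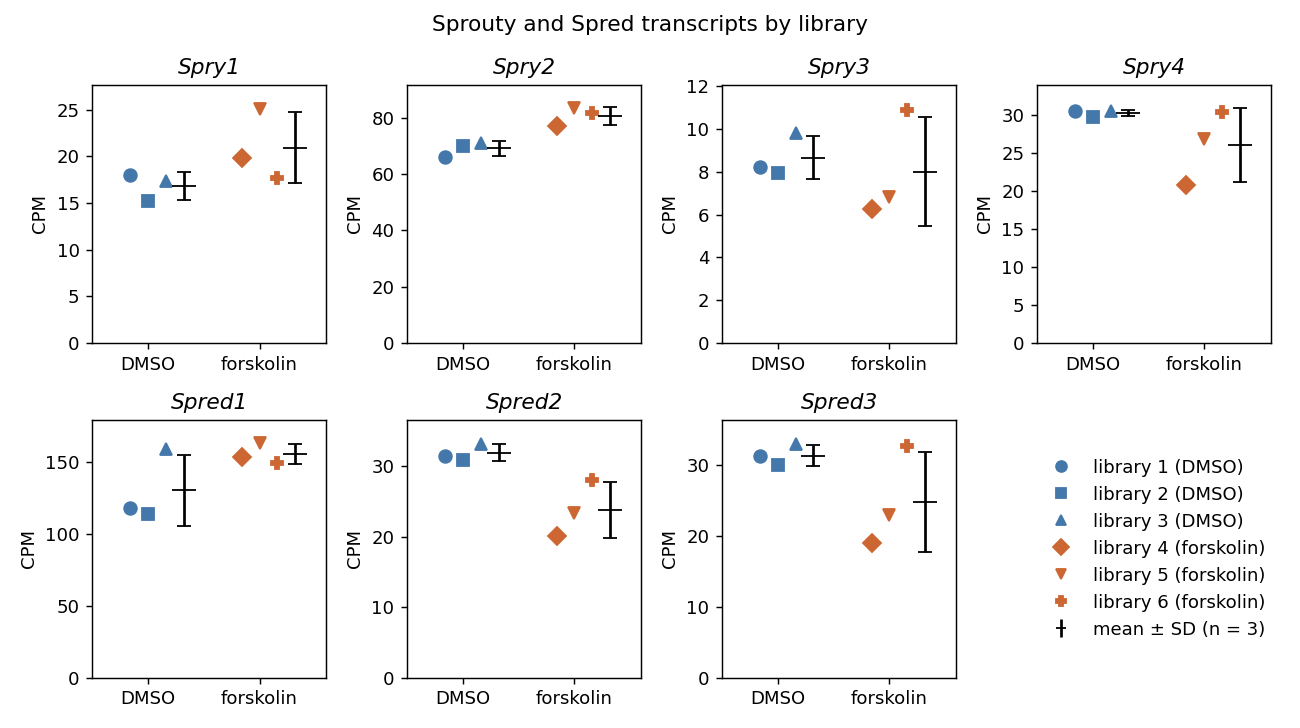
CPM (vertical axes, from 0) of each of the 7 genes in the 3 DMSO and 3 forskolin libraries, 1 symbol per library, with the group mean ± SD in black. The groups are separate only for Spry2, where the treated libraries are higher, and for Spred2, where they are lower; for Spry3, Spry4 and Spred3 library 6 lies at or near the controls and libraries 4 and 5 lie below them.

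Spry2, a Sprouty that binds the ubiquitin ligase Cbl and the adaptor Grb2, was the only member higher in every treated library. Its level was 66.1, 70.2 and 71.2 CPM in the controls and 77.1, 83.4 and 81.8 CPM in the treated libraries. All 3 treated libraries lay above the highest control, library 6 among them, and the ratio of the group means was 1.17. The log2 fold change was 0.22 ± 0.10 (SE), with a 95% interval from -0.0028 to 0.45 (edgeR adjusted p = 0.228). With libraries 4 and 5 left out together the value was 0.28, without library 6 it was 0.20, and with each library's trend on GC content taken out it was 0.12.

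Spry1, the Sprouty best known for restraining GDNF and Ret signalling in kidney development, had 18.0, 15.2 and 17.3 CPM in the controls and 19.8, 25.1 and 17.7 CPM in libraries 4, 5 and 6. Libraries 4 and 5 were above every control, whereas library 6 lay inside the control range (log2 fold change 0.31 ± 0.17 (SE), edgeR adjusted p = 0.311). The value was 0.11 with libraries 4 and 5 left out and 0.59 with the GC trend of each library removed (edgeR adjusted p = 0.765 and 0.321). The microglial markers, 0 of 12 of which were called by edgeR with all libraries (1.51% of tested genes) and 11 of which had an unadjusted p-value under 0.05 (22.3% of all tested genes had), moved with this order: relative to the controls, the list's median log2 ratio reached 3.59 in library 4 and 4.43 in library 5, and stood at -0.14 in library 6. DESeq2 called 11 of 12 higher, where it called 4.90% of tested genes higher, and edgeR without library 6 called 11 of 12 higher (16.5%). Of these 12 markers, 7 are among the increases in the authors' deposited table, Csf1r with a log2 fold change of 3.58 there. The part of microglial RNA in the Spry1 values was not tested. A transcript of uncertain status on the opposite strand, Gm42922, overlaps Spry1 in the annotation, and strand-specific counting is not stated.

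Spry4, another inhibitor of growth factor signalling to ERK, varied less among the controls than among the treated libraries. Its level was 30.4, 29.7 and 30.5 CPM in the controls, a coefficient of variation of 1.44%, and 20.7, 26.8 and 30.3 CPM in libraries 4, 5 and 6, one of 18.8%. Libraries 4 and 5 were below every control and library 6 lay among them (log2 fold change -0.22 ± 0.16 (SE), edgeR adjusted p = 0.433). Spry3, the Sprouty with the fewest reads, had 8.21, 7.94 and 9.82 CPM in the controls and 6.27, 6.82 and 10.9 CPM in the treated libraries. Here libraries 4 and 5 lay below all controls and library 6 above them all, so that the group means of 8.66 ± 1.01 and 8.00 ± 2.55 CPM (SD, n = 3) hid opposite departures. The fitted log2 fold change was -0.11 ± 0.25 (SE; edgeR adjusted p = 0.812). It was -0.42 without library 6 and 0.37 without libraries 4 and 5. With libraries 4 and 5 left out the sign of Spry4 turned as well, to 0.05.

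Spred1, whose loss of function in people causes Legius syndrome, held the most reads of the family. It had 118, 114 and 159 CPM in the controls and 153, 163 and 149 CPM in the treated libraries. The treated libraries were close together, with a coefficient of variation of 4.47%, but control library 3 was as high as they were, so the groups overlapped (log2 fold change 0.25 ± 0.15 (SE), edgeR adjusted p = 0.362). Its value was 0.41 without library 3 (± 0.12 SE, edgeR adjusted p = 0.198). Spred1 is also the lowest in GC content of the 6 members that have a value (Spry3 has none), at 41.2% of its longest transcript, against a median of 49.5% for tested genes, and GC content correlated with the fitted changes over all tested genes (Spearman rho = -0.51, across genes). After that correction for GC content, the log2 fold change of Spred1 was -0.08 (edgeR adjusted p = 0.677).

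Spred2, which like Spred1 binds neurofibromin, had the smallest p-value of the family. It had 31.4, 30.9 and 33.2 CPM in the controls and 20.1, 23.4 and 28.0 CPM in libraries 4, 5 and 6. Each treated library lay below the lowest control, with library 6 nearest to it, and the group means were 31.9 ± 1.22 and 23.8 ± 3.95 CPM (SD, n = 3). The log2 fold change was -0.42 ± 0.14 (SE), with a 95% interval from -0.76 to -0.08 (unadjusted p = 0.0236, edgeR adjusted p = 0.173). Spred3, which lacks a working KIT-binding domain, had 31.2, 29.9 and 32.9 CPM in the controls and 19.0, 22.9 and 32.6 CPM in libraries 4, 5 and 6. Its first 2 treated libraries were below every control, and library 6 was within the control range (log2 fold change -0.34 ± 0.20 (SE), edgeR adjusted p = 0.360). Corrected for GC content, the value was -0.35 for Spred2 and -0.10 for Spred3 (edgeR adjusted p = 0.411 and 0.837). Spred3 overlaps Ggn, a protein-coding gene on the other strand.

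Without library 6, Spred2 (log2 fold change -0.57, adjusted p = 0.0129) and Spred3 (-0.60, adjusted p = 0.0141) passed edgeR's test. That fit called 17.1% of tested genes lower and 16.5% higher, so 2 of 7 is to be read against 33.6% of all tested genes. With limma's library quality weights on all 6 libraries 3 of 7 passed, Spred2 (-0.52, adjusted p = 0.00980), Spred3 (-0.53, adjusted p = 0.0148) and Spry1 (0.45, adjusted p = 0.0375), where 20.9% of genes were called lower and 21.0% higher. With libraries 4 and 5 left out instead, the log2 fold change of Spred2 was -0.15 and that of Spred3 was 0.10 (edgeR adjusted p = 0.610 and 0.739). Among the neuronal markers 0 of 14 were called higher in any of the following fits. Those called lower were 1 of 14 by edgeR with all libraries (1.34% of tested genes), 3 by DESeq2 (6.03%) and 7 by edgeR without library 6 (17.1%). With limma's quality weights 8 were lower (20.9%), and 9 with the GC trend removed and library 6 left out (16.0%). With RLE or upper-quartile factors 0 were lower, where edgeR called 0.696% and 0.511% of tested genes lower. With the GC trend removed from all libraries 0 were called, as in the whole table. The 14 markers had median log2 ratios to the DMSO mean of -0.62, -0.79 and 0.24 in libraries 4, 5 and 6. Spry3, Spry4, Spred2 and Spred3 likewise had lower values in libraries 4 and 5 than in library 6; the part of the neuronal share in this was not tested.

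**Figure D2:**
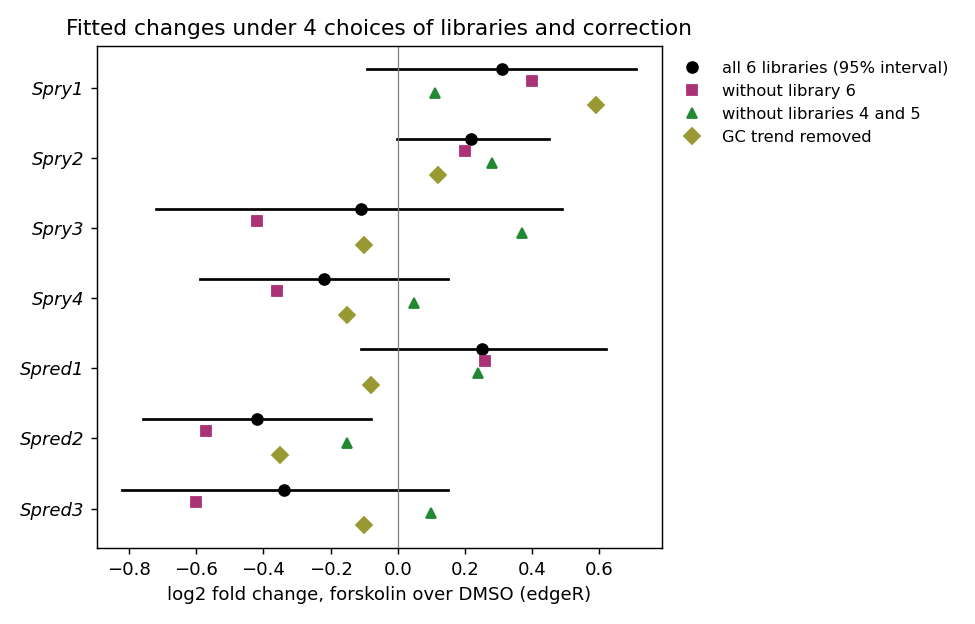
Log2 fold change of forskolin over DMSO (horizontal axis) of the 7 genes from edgeR, with all 6 libraries and a 95% interval in black, without library 6, without libraries 4 and 5, and with the trend on GC content removed. Intervals of 6 genes cross 0 and that of Spred2 does not; Spry3, Spry4 and Spred3 are on opposite sides of 0 when library 6 or libraries 4 and 5 are left out.

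**Figure D3:**
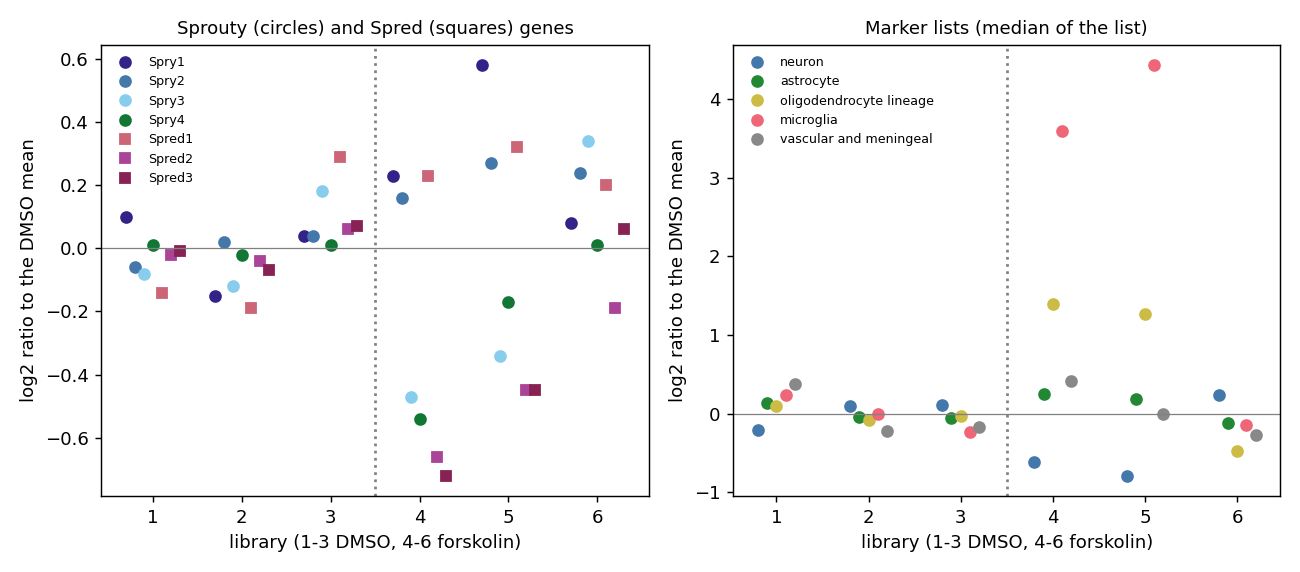
Log2 ratio to the DMSO mean in each library, for the 7 genes (left) and as the median of each marker list (right; the vertical scales differ). In libraries 4 and 5 the microglial median is 3.59 and 4.43 and the neuronal median -0.62 and -0.79, and 4 of the 7 genes (Spry3, Spry4, Spred2 and Spred3) lie below 0 in both; in library 6 both list medians are within 0.24 of 0.

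Because a scaling factor multiplies every gene of a library alike, ratios of counts between members do not depend on it. Spred1 had 3.76, 3.69 and 4.77 reads per Spred2 read in the controls and 7.61, 6.97 and 5.34 in libraries 4, 5 and 6. The treated libraries were all higher, by 1.63 times in the group means. An exact two-sided permutation test on the log ratios gave p = 0.1, the smallest possible with 3 against 3. Any groups without overlap give this value here, so it adds nothing to the lack of overlap. Such ratios do depend on the GC correction: the fitted log2 fold changes of Spred1 (41.2% GC) and Spred2 (51.2% GC) were 0.25 and -0.42 before it and closer together, at -0.08 and -0.35, after it. Spry2 had 2.18, 2.37 and 2.34 reads per Spry4 read in the controls and 3.73, 3.11 and 2.70 in the treated libraries, again without overlap (exact permutation p = 0.1). The correction brought their fitted values from 0.22 and -0.22 to 0.12 and -0.15. By contrast, the ratio of Spred2 to Spred3 was near 1 in the controls (1.01, 1.04 and 1.01) and in libraries 4 and 5 (1.06 and 1.02), and 0.857 in library 6. Of the 21 pairs of members, 7 had ratios that did not overlap between the groups (33.3%), where 25.1% did of all pairs among the 16166 tested genes with a count in every library. The pairs shown were picked with their values in view, and pairs that share a gene are not independent.

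Per kilobase of transcript, the family fell into 3 tiers. In the controls Spry2 stood at 33.2 ± 1.29 CPM per kb and Spred1 at 21.6 ± 4.11 (SD, n = 3), and their libraries did not overlap. Spred3 (7.72 ± 0.376), Spred2 (7.16 ± 0.274), Spry4 (6.34 ± 0.0912) and Spry1 (6.07 ± 0.535 CPM per kb) followed. The control ranges of Spred3 and Spred2 overlapped, although Spred3 was the higher in each control library. Those of Spry4 and Spry1 overlapped too, whereas the lowest control value of Spred2 (6.96) was above the highest of Spry4 (6.41). Spry3 was lowest, at 1.99 ± 0.233 CPM per kb. In each of the 6 libraries Spry2 ranked highest, Spred1 next and Spry3 lowest. With forskolin the middle tier was ordered Spry1 (7.53 ± 1.37), Spred3 (6.12 ± 1.74), Spry4 (5.46 ± 1.03) and Spred2 (5.35 ± 0.889 CPM per kb; SD, n = 3), with overlap between all neighbours in that order. Lengths are those of the longest annotated transcript, from 2087 bases for Spry2 to 6016 bases for Spred1, so the levels shift if shorter forms prevail. The summed CPM of the 4 Sprouty genes was 125 ± 3.43 in the controls and 136 ± 10.2 with forskolin, and that of the 3 Spred genes 193 ± 27.4 and 204 ± 10.1 (SD, n = 3).

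**Figure D4:**
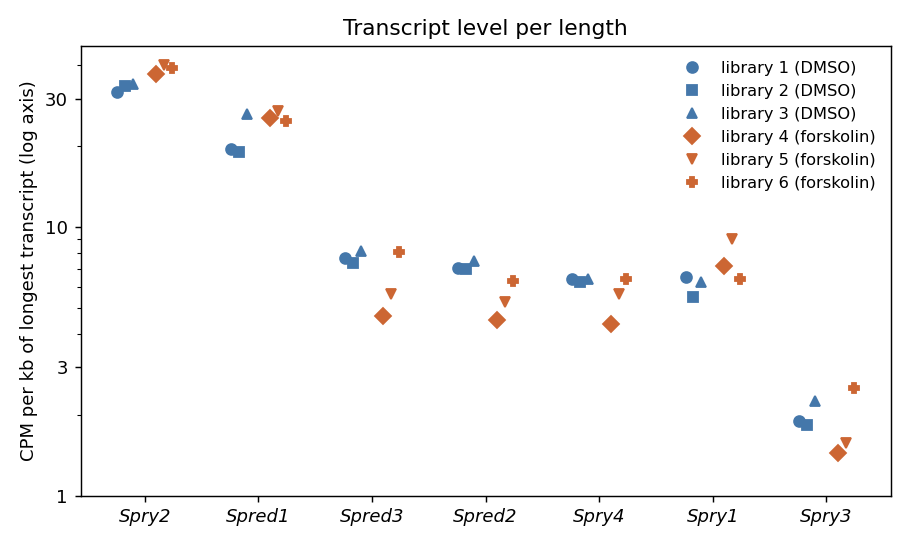
CPM per kilobase of the longest annotated transcript (log axis) in each of the 6 libraries, genes ordered by their mean in the DMSO libraries. Spry2 (31.7 to 40.0) and Spred1 (19.0 to 27.1) are above the other genes in every library, and Spry3 (1.44 to 2.51) is below them.

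The genes differ in the number of coding exons in a way that follows the 2 subfamilies. In the GENCODE M21 annotation of GRCm38, the coding sequence of each Sprouty lies in 1 exon, among them Spry1 on chromosome 3 (37639947 to 37644598), Spry2 on chromosome 14 (105891947 to 105896819) and Spry3 on the unlocalized scaffold GL456233.1, which RefSeq assigns to chromosome X. The coding sequences of Spred1 on chromosome 2 (117121374 to 117182279) and Spred2 on chromosome 11 (19924375 to 20024026) are split over 7 exons each, and that of Spred3 on chromosome 7 (29158829 to 29170411) over 5. The span does not follow the subfamilies. It is 60.9 kb for Spred1, 99.7 kb for Spred2 and 11.6 kb for Spred3. For Spry1, Spry2, Spry3 and Spry4 it is 4.65, 4.87, 5.04 and 15.2 kb. Members of both directions of fitted change were found in both subfamilies.

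Promoter windows from RefSeq (GRCm38.p6, 250 bases before to 50 after the transcript start) were matched for 5 of the 7 genes, and those for Spry3 and Spry4 are not used here. They were searched on both strands for the cAMP response element (CRE) TGACGTCA, its half-site TGACG, which the full element contains, the ETS-type motif CCGGAA and the CArG element of serum response factor. The full CRE was in 0 of 5 windows and in 1.79% of 32851 promoters, and the CArG element in 0 of 5 and in 1.63%. The half-site was found in Spred2 alone (20.8% of promoters hold it) and the ETS-type motif in Spry2 alone (14.9%). These 2 windows are shown because Spry2 and Spred2 are the genes whose groups did not overlap. Each is written along its gene's strand, 5′ to 3′, with the matched motif in capitals: in Spry2 (chr14:105896770-105897069, minus strand) bases 34 to 39 after the start, and in Spred2 (chr11:19924192-19924491, plus strand) bases -51 to -47, where the half-site reads on the opposite strand. A match describes these letters and is not a measured binding site.
Spry2: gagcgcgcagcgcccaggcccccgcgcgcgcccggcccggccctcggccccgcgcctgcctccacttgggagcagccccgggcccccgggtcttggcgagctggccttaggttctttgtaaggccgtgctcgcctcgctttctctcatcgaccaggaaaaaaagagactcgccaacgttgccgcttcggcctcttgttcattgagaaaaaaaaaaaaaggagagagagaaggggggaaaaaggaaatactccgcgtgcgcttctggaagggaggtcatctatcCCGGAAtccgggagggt
Spred2: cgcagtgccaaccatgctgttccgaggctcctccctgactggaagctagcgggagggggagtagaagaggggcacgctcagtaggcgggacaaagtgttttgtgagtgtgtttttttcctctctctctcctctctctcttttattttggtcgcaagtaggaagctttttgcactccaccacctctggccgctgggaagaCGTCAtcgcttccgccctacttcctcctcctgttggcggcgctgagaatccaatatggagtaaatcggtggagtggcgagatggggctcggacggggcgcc

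The genes whose log2 CPM followed each member most closely over the 6 libraries were taken from 13445 genes that averaged at least 50 counts. With only 6 libraries that fall into separate groups, high coefficients are common: between 46 and 263 genes had a Pearson correlation over 0.95 with a given member. Nova2, a neuronal splicing factor, was most like Spred2 (r = 0.9992), followed by Prr3 and Ism1. Pcdha5, a clustered protocadherin, was most like Spred3 (r = 0.9988), with Pxylp1 and the potassium channel gene Kcnj6 next. For Spry3 they were Nbea, Usp12 and Huwe1, and for Spry4 Efnb3, Rlbp1 and Hip1. Dock10, Plbd1 and Syt10 were most like Spry1 (r from 0.9953 to 0.9982), 1110059E24Rik, Tyw5 and Cmc1 most like Spry2, and Nsun3, Ccdc186 and Arglu1 most like Spred1. Among the members themselves, Spred2 correlated with Spred3 (r = 0.95) and Spry4 with both (0.91 and 0.95), and Spry1 correlated negatively with all 3 (-0.67 with Spred2, -0.63 with Spred3 and -0.43 with Spry4). These coefficients describe 6 libraries of shared origin and carry no test.

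The pathway around these inhibitors was described by lists of its ligands, receptors, cascade and targets. Over all tested genes edgeR called 1.51%, 22.3% had an unadjusted p-value under 0.05, and the median log2 fold change was 0.02. Of 20 tested growth factor ligand genes 0 were called by edgeR, DESeq2 called 1 (Pdgfb, lower), and 5 had an unadjusted p-value under 0.05, near the share of all genes, with a median log2 fold change of -0.04. The smallest p-values were those of Pdgfb (log2 fold change -0.56, edgeR adjusted p = 0.0885, DESeq2 adjusted p = 0.00314), Pdgfa (-0.37) and Hgf (0.78). With the GC trend removed these values were -0.05, -0.28 and 0.38. Of 17 receptor tyrosine kinases 0 were called by edgeR and 1 had an unadjusted p-value under 0.05 (median -0.14): Fgfr3, a receptor for fibroblast growth factors that Sproutys oppose, had 131, 128 and 118 CPM in the controls and 104, 92.1 and 97.8 CPM with forskolin (log2 fold change -0.36, edgeR adjusted p = 0.140). It was the 1 receptor gene that DESeq2 called (adjusted p = 0.0415). Its value after the correction for GC content was -0.09. Erbb3 (1.61) and Kit (-0.50) came next; their groups overlapped, since library 6 did not follow libraries 4 and 5. Of 30 Ras to ERK cascade genes 0 were called by edgeR and 6 had an unadjusted p-value under 0.05, again near the 22.3% of all genes (median -0.10). The smallest were those of the adaptors Frs3 (log2 fold change -1.02, edgeR adjusted p = 0.0821) and Shc2 (-0.50, adjusted p = 0.0822) and the scaffold Ksr1 (-0.39). The GC correction left -0.41 for Shc2, but -0.48 for Frs3 and -0.06 for Ksr1. DESeq2 called Frs3 and Shc2 lower (adjusted p = 0.00103 and 0.00843) and Rap1a, named here for that call, higher.

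Of 14 genes for proteins that bind or modify Sproutys and Spreds, 0 were called by edgeR and 3 had an unadjusted p-value under 0.05, where 22.3% of all tested genes did, with a median log2 fold change of -0.02. Siah2, a ubiquitin ligase that targets Sprouty proteins for degradation, had 20.0, 19.1 and 18.0 CPM in the controls and 36.0, 30.1 and 23.2 CPM in libraries 4, 5 and 6. All treated libraries were above the controls, with library 6 again nearest to them (log2 fold change 0.65 ± 0.18 (SE), edgeR adjusted p = 0.126; DESeq2 adjusted p = 0.0159). Its value was 0.95 with the GC trend removed (adjusted p = 0.161) and 0.32 without libraries 4 and 5. Tesk1, a kinase that binds Sproutys, had 16.8 ± 0.617 CPM in the controls and 11.8 ± 0.251 CPM with forskolin (SD, n = 3). Its log2 fold change was -0.51 (edgeR adjusted p = 0.101, DESeq2 adjusted p = 0.00539) and turned to 0.18 with the GC trend removed. Lztr1, an adaptor for the degradation of Ras proteins, had a log2 fold change of -0.33, and of -0.17 with the GC trend removed.

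Other negative regulators of Ras and ERK held the only calls that edgeR made in these pathway lists with all libraries: of 15 tested, 0 rose and 2 fell, where edgeR called 0.172% of all tested genes higher and 1.34% lower. Unadjusted p-values under 0.05 were found for 5 of 15, where 22.3% of all tested genes had one, and the list had a median log2 fold change of 0.08. Dab2ip, a Ras GTPase-activating protein, fell from 118, 119 and 121 CPM to 82.0, 78.6 and 77.8 CPM (log2 fold change -0.59 ± 0.09 (SE), edgeR adjusted p = 0.0417). Dusp7, a phosphatase of ERK, fell from 26.3, 33.9 and 29.5 CPM to 17.8, 16.3 and 17.6 CPM (log2 fold change -0.80 ± 0.13 (SE), edgeR adjusted p = 0.0458). In both, library 6 lay close to libraries 4 and 5, unlike in Spry4 and Spred3. Neither call held with the GC trend removed, where Dab2ip had -0.16 (edgeR adjusted p = 0.536) and Dusp7 -0.45 (0.353), nor without any 1 of libraries 1 to 5 (0.149 to 0.342). Each of those fits called 0 genes in the whole table, and without 1 of libraries 1 to 5 the log2 fold changes stayed between -0.61 and -0.54 for Dab2ip and between -0.86 and -0.68 for Dusp7. Both passed without library 6 (edgeR adjusted p = 0.00506 and 0.00841) and with DESeq2 on all libraries (adjusted p = 4.35e-08 and 1.33e-04). Both fell short with RLE factors, with upper-quartile factors and without a low-count filter, where the edgeR adjusted p-values ran from 0.0563 to 0.0738, and with libraries 4 and 5 left out (0.121 and 0.173). Dusp7 alone missed the threshold with limma-voom (adjusted p = 0.0517), and Dab2ip alone with the GC trend removed and library 6 left out (edgeR adjusted p = 0.0620). Among 18 genes that ERK signalling is known to control or act through, 0 were called by edgeR and 4 had an unadjusted p-value under 0.05, where 22.3% of all tested genes did (median -0.02). DESeq2 called 2 of them, Ier3 and Mcl1, higher (adjusted p = 0.0292 and 0.0478). Ier3 (log2 fold change 1.34, edgeR adjusted p = 0.163), Mcl1 (0.55, adjusted p = 0.168) and Egr1 (0.63, adjusted p = 0.196) had the smallest, each with libraries 4 and 5 above every control and library 6 within the control range. Without libraries 4 and 5 their values were 0.28, 0.20 and 0.28, and with the GC trend removed that of Egr1 was 0.95. Egr1 had 123, 83.4 and 84.2 CPM in the controls and 142, 193 and 115 CPM in libraries 4, 5 and 6.

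The counts for the pathway lists depended on the tool and on library 6. DESeq2 called 1 of 20 ligands, 1 of 17 receptors, 3 of 30 cascade genes, 2 of 14 partners, 4 of 15 other negative regulators and 2 of 18 ERK-linked genes, where it called 10.9% of all tested genes. Without library 6, edgeR called 4 of 22, 3 of 17, 13 of 30, 5 of 14, 4 of 15 and 5 of 18 in the same order, against 33.6% of all tested genes. In the cascade 11 of those 13 were lower and 2 higher. With limma's quality weights the counts were 7 of 20, 4 of 17, 13 of 30, 6 of 14, 7 of 15 and 6 of 18, against 41.9%. Plain limma-voom called Dab2ip alone in these lists, and 1.34% of all tested genes.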

How the data were processed

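The authors deposited counts, whole numbers without normalization, for each gene symbol and library. The submitters' processing notes name Salmon, DESeq and GRCm38, without versions or roles; since Salmon estimates abundances, the counts may be rounded estimates. The annotation and the strand setting are not given in the sources used here. The second table, deposited by the authors, compares the treatments and gives each gene's average normalised signal, its log2 fold change and error, a test score and p-values, per the file headers; it was used only to look up the members and the listed genes.

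Low genes were removed by filterByExpr of edgeR (count 10, total 15). The rest were scaled with TMM factors and tested with glmQLFit and glmQLFTest on the group (R 4.3.3, edgeR 4.0.16, limma 3.58.1, DESeq2 1.42.0), and p-values were adjusted over all 16233 genes. Standard errors were derived from the fold change and its F statistic. CPM are counts over TMM-scaled library sizes; log2 CPM used a prior count of 2, and list medians per library added 0.5 CPM. The fit was also run on simulated counts with changes larger than any fitted for the members. That run does not show how the fit performs for changes as small as theirs. GENCODE M21 gave lengths and GC content (15769 tested genes had a value; Spry3 had none and took the median trend). The GC correction subtracted a loess trend (span 0.3) per library.

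The members and lists were chosen with earlier results of these data known. All 7 members are named, with up to 3 genes per pathway list by p-value (those past the threshold, or else the smallest) and the 3 genes most correlated with each member. The members' counts ran from 232 (Spry3) to 7203 (Spred1) per library, and counting error adds to the spread between libraries, most for Spry3. No 2 libraries agreed within sampling noise (chi-square per degree of freedom from 30.3 to 283). The alternatives were other tests, scalings, filters, a robust prior, the GC correction and libraries left out.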

Additional observations from a re-analysis of the deposited data

How the results depend on the processing

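The 245 genes called over the whole table became 1775 with DESeq2, 6795 with limma quality weights, 137 with RLE factors, 102 with upper-quartile factors, 5419 with the GC trend removed and library 6 left out, and 94 with libraries 4 and 5 left out, where the lone treated library is assumed to vary like the others. EdgeR made 0 calls with the GC trend removed (1950 genes had an unadjusted p-value under 0.05). Leaving out 1 library gave between 0 and 5698 calls, the highest without library 6 and 0 without any other, where 1945 to 3216 genes had an unadjusted p-value under 0.05.

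The members past the threshold were 0 of 7 by edgeR with all libraries, 3 with limma quality weights on the same libraries, and 2 with the GC trend removed and library 6 left out (Spry1 at 0.63, edgeR adjusted p = 0.0256, and Spred2 at -0.49, 0.0208, where 16.0% of genes were called in each direction). Leaving out 1 library gave 0 to 2, the highest without library 6. Over 18 alternatives the log2 fold change ran from 0.11 to 0.63 for Spry1, 0.10 to 0.28 for Spry2 and -0.57 to -0.15 for Spred2, with no change of sign. It changed sign for Spry3 without library 4 (0.03), without library 5 (0.02) and without both (0.37), and was -0.42 without library 6. Without both, Spry4 (0.05), Spred3 (0.10), Erbb3 (-1.18) and Kit (0.09) also turned. Removing the GC trend turned Spred1 to -0.08 and Tesk1 to 0.18, and with library 6 also left out to -0.12 and 0.02. No paired analysis was possible because the groups share no replicate number. The median log2 fold change over tested genes was 0.02, and -0.09 when only library size was used for scaling. The causes of these differences were not tested.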
